A study of Sus scrofa with 6 samples.

Results

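The mitochondrial genome encodes 13 mRNAs, and 6 of them belong to complexes III, IV and V of oxidative phosphorylation: CYTB of complex III, COX1, COX2 and COX3 of complex IV, and ATP6 and ATP8 of complex V. These 6 genes were taken by their Ensembl identifiers (ENSSSCG00000018094 for CYTB, ENSSSCG00000018075 for COX1, ENSSSCG00000018078 for COX2, ENSSSCG00000018082 for COX3, ENSSSCG00000018081 for ATP6 and ENSSSCG00000018080 for ATP8) out of 32420 listed features, and all 6 were found in every sample. Total RNA from ovary of Sus scrofa at 49 days post coitus was sequenced after depletion of ribosomal RNA, with 3 samples from Meishan, a Chinese breed, and 3 from Large White, a European breed. Both groups share the tissue and the day, and neither received a treatment by the labels. The labels do not state whether the ovaries came from fetuses or from the pregnant dams, nor whether the 3 samples of a breed came from separate animals. The methods of the study speak of individuals as biological replicates, in a passage on tissue collection that does not mention these ovaries. If the samples do not come from separate animals, the p-values measure only the spread between these samples, which may be technical. The labels name no litter or library batch, so breed cannot be told apart from these, even if the animals were separate.

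Complex III passes electrons from ubiquinol to cytochrome c, complex IV passes them on to oxygen, and complex V uses the resulting proton gradient to make ATP. The mitochondrially encoded proteins form the membrane core of these complexes, while most other subunits are encoded in the nucleus and imported. The mitochondrial genes have no introns and are transcribed as long polycistronic RNAs that are cut mainly at the tRNAs between them, so mature mRNAs of one transcript can differ in level after cutting. ATP8 and ATP6 have overlapping reading frames and stay together on one RNA. In the RefSeq annotation of Sscrofa11.1, a later build than the one the authors used, they share 43 bases, and ATP6 shares 1 base with COX3, which follows it.

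The levels are RPKM values, reads per kilobase of feature scaled to the mapped reads of the sample, so genes of different length can be set side by side. Division by length does not account for how reads over shared bases or at the ends of a short feature were counted. This limits every comparison with ATP8. Each sample had between 35185781 and 39033204 mapped reads as recovered from the steps of the values, of which the 6 genes took between 0.43% and 1.19%. Over all tested features, Meishan replicate 3 correlated with the other samples at r between 0.865 and 0.888, below the other pairs (0.932 to 0.9748), so results are also given without it where it matters. The ovary label was compared with marker genes. Of 11 germ cell markers 7 had an identifier, and among them the germline helicase DDX4 lay between 0 and 1.58 RPKM, the meiotic gene SYCP3 between 0.64 and 1.75, and TFAP2C at no more than 0.04, while PRDM1 reached 3.09 and the receptor KIT, which cells outside the germ line also carry, lay between 1.68 and 16.9. The gonadal factor GATA4 lay between 18.1 and 30.4 RPKM, and 4 of 7 kidney markers with an identifier summed to between 0.50 and 0.72. CYP11A1, the mitochondrial enzyme that starts steroid synthesis, was chosen for this check after its values were seen and lay between 506 and 1882 RPKM. INHA, the inhibin alpha subunit that granulosa cells make, was chosen in the same way and was listed at 491 RPKM in Meishan replicate 3 and between 2.05 and 4.93 in the other samples. The same check held SCARB1, at 1119, 908 and 252 RPKM in Meishan, against 356, 505 and 489 in Large White. It also held LHCGR, between 28.5 and 37.8 in all samples, and FSHR, at 6.90 in Meishan replicate 3 and at most 0.68 elsewhere.

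COX1, which encodes the catalytic subunit of complex IV with its heme and copper centres, had the highest level of the 6 genes in all 6 samples. Its RPKM was 2460, 4634 and 2597 in Meishan replicates 1, 2 and 3, and 1995, 2170 and 1884 in Large White replicates 1, 2 and 3. It ranked between 2 and 7 among all 32420 features of a sample. Meishan replicate 2 stood highest, and the lowest Meishan sample lay above the highest Large White sample. COX2, the subunit that receives electrons from cytochrome c, had an RPKM of 619, 1528 and 917 in Meishan, against 605, 705 and 574 in Large White. COX3, a core subunit without a metal centre, had 755, 2065 and 1338 in Meishan, against 596, 818 and 616 in Large White. For both genes Meishan replicate 1 lay within the Large White range and replicates 2 and 3 above it.

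ATP6, the subunit that carries protons through the membrane part of ATP synthase, had an RPKM of 488, 1932 and 1147 in Meishan, against 459, 668 and 404 in Large White. ATP8, a small membrane subunit of the same complex, had 35.8, 125 and 76.1 in Meishan, against 38.9, 46.3 and 39.6 in Large White. Meishan replicate 1 had the lowest ATP8 value of all 6 samples, and Meishan replicate 2 the highest. CYTB, the heme-bearing core of complex III, had 202, 656 and 250 in Meishan, against 198, 243 and 199 in Large White. For CYTB, Meishan replicates 1 and 3 were close to the Large White samples, and only Meishan replicate 2 stood far above them.

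**Figure D1:**
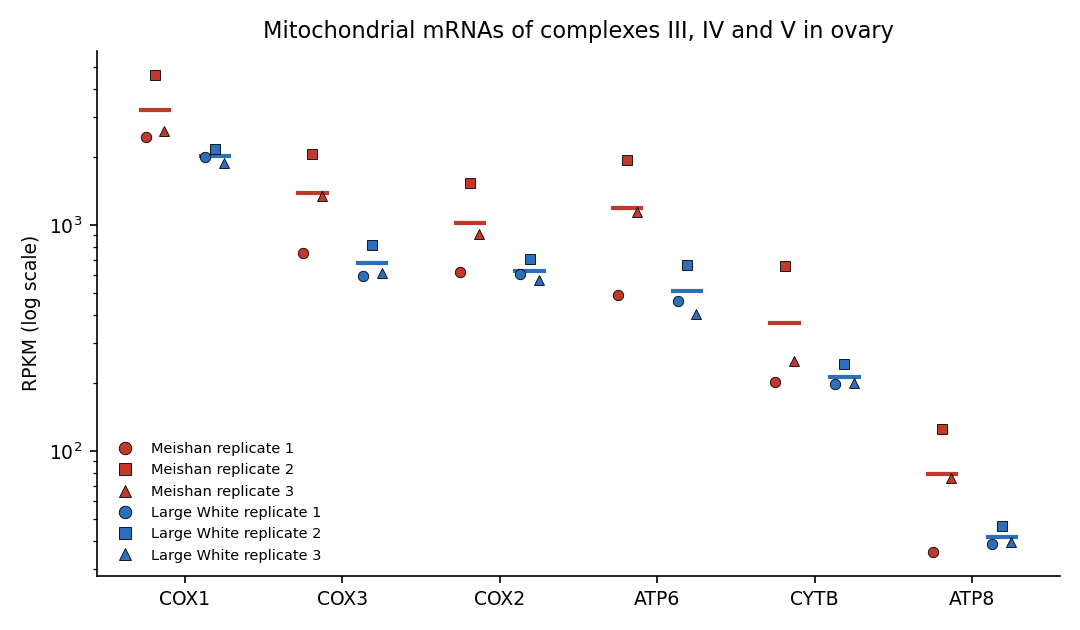
RPKM (log scale) of the 6 mitochondrial mRNAs in each sample, with genes ordered by level, Meishan in red, Large White in blue, a symbol for each replicate number and a bar at the mean of each breed (n = 3). COX1 sits highest and ATP8 lowest in every sample, and Meishan replicate 2 is the highest sample for all 6 genes.

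The order of the levels was tested within samples. Of the 15 pairs of the 6 genes, 13 had the same order in all 6 samples (two-sided exact sign-flip permutation test, p = 0.03125, the smallest p that 6 samples allow, and 0.0361 after Benjamini-Hochberg adjustment over the 15 pairs). COX1 was above COX3, the next gene by mean level, by 2.70-fold in the geometric mean, with a range over samples from 1.94 to 3.35. COX3 exceeded COX2 in 5 of 6 samples, by 1.20-fold in the geometric mean (exact sign-flip permutation p = 0.0625). The mean log2 difference of COX3 over COX2 was 0.26, with an SD of 0.21 over the 6 samples. As 0.03125 is the smallest p of this test, it is too coarse to settle whether these neighbours differ. COX2 and ATP6 did not keep one order across the samples. COX2 was higher in 4 of 6 samples (exact sign-flip permutation p = 0.406), and ATP6 was higher in Meishan replicates 2 and 3. COX3 exceeded ATP6 in 6 of 6 samples, by between 1.07- and 1.55-fold. CYTB lay below ATP6 by 2.74-fold and above ATP8 by 4.85-fold in the geometric mean. Among all 13 mitochondrial mRNAs, COX1 ranked 1 and ATP8 ranked 13 in every sample, COX2, COX3 and ATP6 took ranks 2 to 4, and CYTB ranked between 6 and 10, among the complex I genes.

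The 3 core subunits of complex IV occur once each in the enzyme, and the RNA of COX1 exceeded that of COX2 and COX3 in every sample. COX1 stood to COX2 at a ratio of 3.97, 3.03 and 2.83 in Meishan, against 3.30, 3.08 and 3.28 in Large White. COX2 stood to COX3 at 0.820, 0.740 and 0.685 in Meishan, against 1.016, 0.861 and 0.932 in Large White. The last ratio was lower in each Meishan sample than in any Large White sample (two-sided exact permutation p = 0.1, which is the floor for 3 against 3).

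The overlapping pair ATP8 and ATP6 differed widely in level. ATP8 stood at 7.34%, 6.47% and 6.64% of the RPKM of ATP6 in Meishan and at 8.46%, 6.94% and 9.80% in Large White. ATP6 was thus between 10.21- and 15.4-fold above ATP8 per length, in 6 of 6 samples (exact sign-flip permutation p = 0.03125), although both lie on one RNA. The Meishan mean of this percentage, 6.82% ± 0.458 (SD, n = 3), and the Large White mean, 8.40% ± 1.43 (SD, n = 3), were not separated by an exact permutation test of the log2 ratio (p = 0.2, two-sided). ATP8 is the shortest of the 13 features, with a recovered length of 204 bases against 681 for ATP6, 688 for COX2, 784 for COX3, 1140 for CYTB and 1545 for COX1. Between 267 and 949 reads were assigned to it per sample, against 10257 to 48937 for ATP6. The half-width of the counting interval (95% exact Poisson) was at most 12.2% of the value for ATP8 and 2.2% for the other 5 genes, so the gap is outside counting error. Counting tools such as htseq-count by default assign no read that overlaps more than one feature. The mode used is not given in the sources used here, and the part of the shared bases and of the short length in the gap was not tested.

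Within the pool of 13 mitochondrial mRNAs, the 6 genes held 79.7%, 73.9% and 75.7% of the summed RPKM in Meishan, against 74.1%, 72.5% and 73.9% in Large White. The difference of 2.94 percentage points between the breed means did not exceed the spread between replicates (exact permutation p = 0.3, two-sided). Without ND6 in the pool the difference was 3.42 points and the breeds separated (exact permutation p = 0.1, the floor), and on recovered reads it was 1.56 points (exact permutation p = 0.9). COX1 alone held 43.0%, 31.3% and 31.1% in Meishan, against 37.98%, 33.8% and 37.5% in Large White. The ATP6 share was 8.53%, 13.05% and 13.7% in Meishan, against 8.75%, 10.4% and 8.03% in Large White. The 2 Meishan samples with the highest mitochondrial levels therefore had the lowest COX1 shares and the highest ATP6 shares, while Meishan replicate 1 had the highest COX1 share of all. The COX3 share was higher in each Meishan sample (13.2%, 13.9% and 16.0%) than in any Large White sample (11.3%, 12.7% and 12.2%), and the COX2 share was lower (10.8%, 10.3% and 10.97% against 11.5%, 10.98% and 11.4%). Each of these gave an exact permutation p = 0.1, the smallest possible, and the nearest samples for COX2, Meishan replicate 3 and Large White replicate 2, lay close together. Both separations were lost on shares of recovered reads, which do not divide by length. There COX3 held 9.06%, 10.16% and 11.9% in Meishan, with Large White at 7.97%, 9.26% and 8.64%, and COX2 held 6.52%, 6.60% and 7.14%, the last above the highest Large White share of 7.10%. Shares of ATP8 and CYTB overlapped between the breeds (exact permutation p = 0.6 and p = 0.7).

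**Figure D2:**
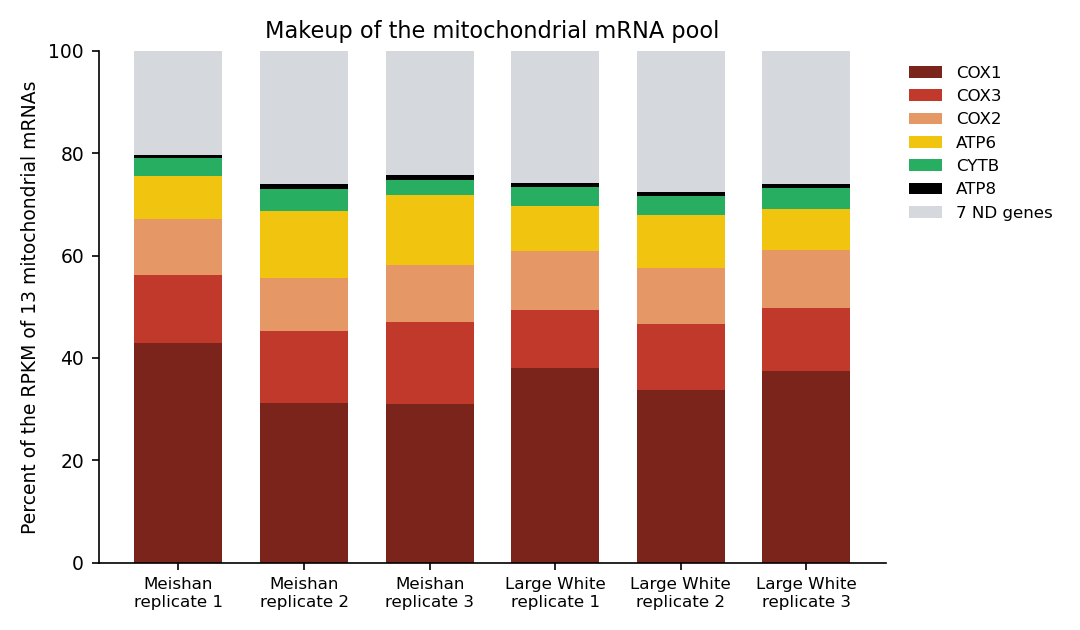
Percent of the summed RPKM of the 13 mitochondrial mRNAs held by each of the 6 genes and by the 7 complex I (ND) genes together, as 1 stacked bar for each sample. COX1 holds between 31.1% and 43.0%, ATP8 less than 1% in each bar, and the ATP6 band is widest in Meishan replicates 2 and 3.

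All 6 genes had a higher mean in Meishan than in Large White, and 0 of 6 passed the threshold of an adjusted p under 0.05 and a fold change of at least 2 (limma with Benjamini-Hochberg adjustment over 14902 tested features). In the background, 0.215% of tested features passed as higher in Meishan and 0.758% in either direction. The log2 fold changes of RPKM + 1, Meishan minus Large White, ran from 0.59 for CYTB to 1.04 for ATP6, with a median of 0.68 against -0.03 over all tested features. At an unadjusted p under 0.05 there were 0 of 6 genes, against 15.9% of all features. A log2 difference above 0 was seen for 47.0% of the tested features, and the 6 genes share one genome and varied together across samples, so their common sign is not 6 independent results.

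For ATP6 the Meishan mean was 1189 ± 723 RPKM (SD, n = 3) and the Large White mean 510 ± 139 (SD, n = 3) (log2 fold change 1.04, standard error 0.58, limma adjusted p = 0.421), higher than every Large White sample in 2 of 3 Meishan samples. COX3 followed at 1386 ± 656 (SD, n = 3) against 677 ± 123 (SD, n = 3), with a log2 fold change of 0.93 (95% interval -0.28 to 2.15, limma adjusted p = 0.424). For ATP8 the values were 79.0 ± 44.7 and 41.6 ± 4.13 (SD, n = 3 each), with a log2 fold change of 0.74 (95% interval -0.21 to 1.69, limma adjusted p = 0.418). COX1 had 3231 ± 1218 and 2016 ± 144 (SD, n = 3 each), a log2 fold change of 0.62 (95% interval -0.96 to 2.20, limma adjusted p = 0.698). COX2 and CYTB had log2 fold changes of 0.61 and 0.59 (limma adjusted p = 0.569 and 0.564). The intervals reach beyond 2-fold in the upward direction for all 6 genes, so this fit neither shows such a difference nor bounds it below 2-fold. Their widths depend on the fitted trend of variance with level, and not only on the spread of each gene. Without that trend, at the same log2 fold changes, the limma adjusted p of COX1 was 0.313. Over the 6 genes it then lay between 0.270 for COX3 and 0.526 for CYTB.

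COX1 was the 1 gene of the 6 whose 3 Meishan samples all lay above the 3 Large White samples, which held for 9.94% of the tested features. The other 5 genes overlapped because of Meishan replicate 1. The spread was wider in Meishan, where the highest sample exceeded the lowest by between 1.88-fold for COX1 and 3.96-fold for ATP6, than in Large White, where it did so by between 1.15-fold for COX1 and 1.65-fold for ATP6. Meishan replicate 2 lay above the median of the other 5 samples by 2.14-fold for COX1, 2.47-fold for COX2, 2.73-fold for COX3, 3.16-fold for ATP8, 3.25-fold for CYTB and 3.96-fold for ATP6. Without it, the log2 fold changes were between 0.08 for CYTB and 0.59 for COX3. Without Meishan replicate 3, which stood apart over all features, they were between 0.64 for COX2 and 0.96 for ATP6, and 0 of 6 genes passed in either fit.

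Because RPKM is relative to all mapped reads, the summed level of the 6 genes was also set against the sum of all listed features. It was 1.97%, 5.01% and 3.22% in Meishan, against 1.51%, 1.74% and 1.64% in Large White (exact permutation p = 0.1, two-sided, at the floor for this design), so all Meishan samples lay above all Large White samples on this scale. The summed RPKM itself overlapped, with Meishan replicate 1 at 4560 and Large White replicate 2 at 4650. The separation thus also rests on the sums of all listed features, 196380 to 232013 in Meishan against 226319 to 267915 in Large White. In bulk tissue, a larger part of cells rich in mitochondria and more mitochondrial RNA per cell cannot be told apart. No marker gene passed the threshold between the breeds (the lowest limma adjusted p was 0.0866, for KIT), against 0.758% of tested features. The sums of 3 marker lists did not overlap, which is a description with no test. Among single tested features, 9.94% did not overlap with Meishan higher and 13.6% with Meishan lower. No such share was taken for sums of lists. For 3 of 6 macrophage markers the sum lay between 29.5 and 72.4 in Meishan, against between 99.8 and 125 in Large White, for 4 of 8 pregranulosa markers between 36.9 and 69.4 against 25.9 and 32.5, and for 7 of 11 germ cell markers between 6.19 and 10.9 against 18.1 and 20.6. KIT took between 1.68 and 7.77 RPKM of the last sum in Meishan, against between 14.8 and 16.9 in Large White. Of the pregranulosa sum, GATA4 took between 29.0 and 30.4 RPKM in Meishan, against between 18.1 and 23.9 in Large White. FST and AMHR2 of that list overlapped between the breeds, and LGR5 was near 0. The other lists overlapped over all samples, with 3 of 6 stroma markers between 85.6 and 308 in Meishan, against 104 and 162 in Large White, and 3 of 5 endothelial markers between 37.3 and 74.9 against 58.5 and 62.3. For 4 of 8 erythroid markers, nearly all of it HBB, the sums were 42.2 to 139 against 70.9 to 79.2, and for 6 of 7 testis markers, mostly INSL3 and CYP17A1, which theca cells also express, 3.03 to 297 against 18.7 to 35.6. Without Meishan replicate 3, the stroma sums were 85.6 and 92.8 in Meishan, the endothelial sums 71.1 and 74.9 and the testis list sums 3.03 and 4.49, so that these 3 lists did not overlap with Large White either. With 2 samples against 3 a separation arises more easily, and its share over all features was not counted. The part of these cells in the mitochondrial levels was not tested.

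The nuclear partners of the 6 genes mostly had lower means in Meishan, and none passed the threshold. An identifier was found for 18 of 36 listed nuclear genes of complexes III, IV and V, and all 18 were tested. Their log2 fold changes were below 0 for 17 of the 18, where 53.0% of all tested features were, with a median of -0.60. None of the 18 passed the threshold in the limma fit, against 0.544% of features called lower in Meishan. For 9 of them the unadjusted p was under 0.05, against 15.9% of features. All 3 Meishan samples lay below all 3 Large White samples for 11 of the 18, where this held for 13.6% of tested features. After scaling to the RPKM of non-mitochondrial features, which moved the median of all features from -0.03 to 0.17, 16 of 18 stayed below 0 with a median of -0.36. Without Meishan replicate 3, 15 of 18 did, with a median of -0.42. The 18 genes were measured in the same 6 samples, so these counts are not 18 independent results.

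In complex III, UQCRC2, a core protein, had an RPKM of 10.9, 8.51 and 7.26 in Meishan, against 16.4, 14.7 and 12.6 in Large White (log2 fold change -0.66, limma adjusted p = 0.178). UQCRFS1, the Rieske iron-sulfur protein, had 15.6, 14.0 and 10.7 against 22.9, 20.6 and 18.1 (limma adjusted p = 0.211). The complex III gene with the highest mean, UQCR10, overlapped between the breeds. In complex IV, NDUFA4 had 113.5, 81.8 and 52.0 in Meishan, against 143, 168 and 113.7 in Large White (log2 fold change -0.82, limma adjusted p = 0.270), and COX5B, the gene with the highest mean in this list, had 196, 137 and 113 against 230, 301 and 198 (limma adjusted p = 0.312). COX4I1, a large nuclear subunit of the enzyme, was the 1 gene with a log2 fold change above 0, at 0.08. In complex V, ATP5ME, a membrane subunit, had 41.6, 16.8 and 34.7 in Meishan, against 65.2, 83.6 and 58.6 in Large White (log2 fold change -1.21, limma adjusted p = 0.163). ATP5MC3, which encodes the rotating c subunit, had 33.3, 28.6 and 28.3 against 50.6, 49.8 and 39.8 (limma adjusted p = 0.178). ATP5F1A, the alpha subunit and the gene with the highest mean in the list, had 184, 149 and 108 against 265, 274 and 190 (limma adjusted p = 0.291). For each of these genes other than UQCR10 and COX4I1, the breeds did not overlap, though for NDUFA4 and COX5B the nearest samples of the breeds were almost equal.

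**Figure D3:**
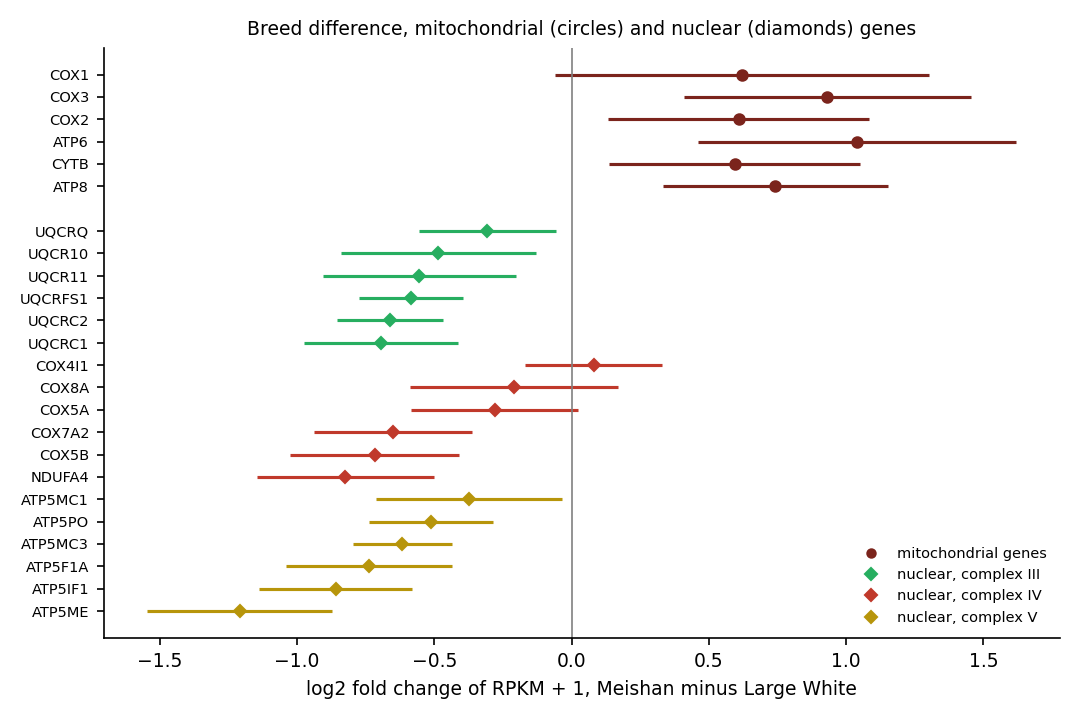
Log2 fold change of RPKM + 1, Meishan minus Large White, for the 6 mitochondrial genes (circles) and 18 nuclear genes of complexes III, IV and V (diamonds), with bars of 1 standard error from limma. The 6 mitochondrial values lie between 0.59 and 1.04, and 17 of the 18 nuclear values lie below 0, with none past the threshold.

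The ratio of the mean mitochondrial to the mean nuclear RPKM was taken for each complex in each sample. For complex IV it was 13.2, 36.1 and 33.0 in Meishan, against 9.92, 10.18 and 11.7 in Large White, and for complex V it was 3.14, 16.3 and 11.07 against 2.101, 2.89 and 2.49. The breeds did not overlap in these 2 complexes, which is a description with no test and no share over other features beside it. The ratios recombine the mitochondrial and nuclear values given above, so they are not a separate result. For complex III, with CYTB as the only mitochondrial gene, it was 4.50, 17.7 and 10.9 against 3.74, 4.24 and 5.06, and Meishan replicate 1 lay within the Large White range. In all 3 complexes Meishan replicate 1 was nearest to the Large White samples.

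**Figure D4:**
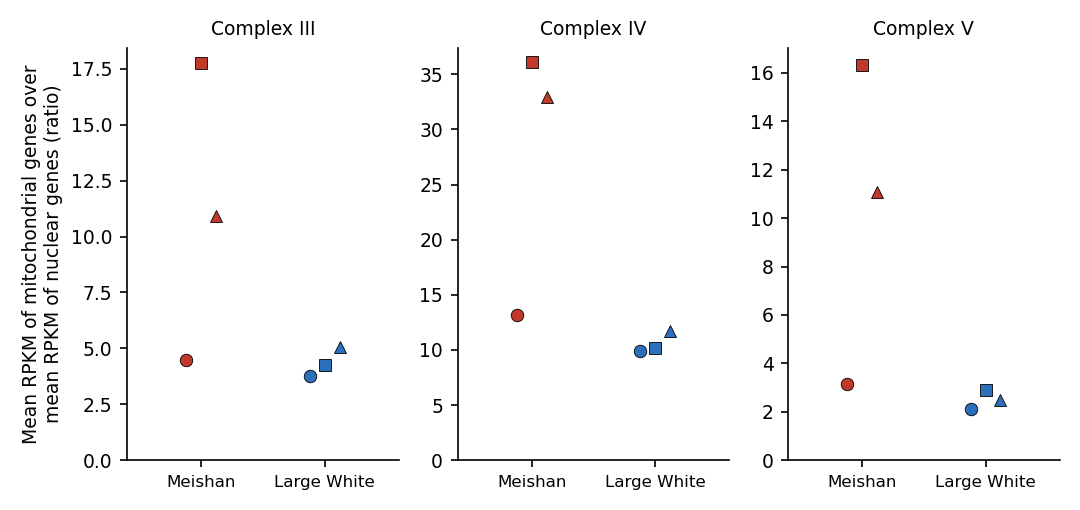
Ratio of the mean RPKM of the mitochondrial genes to the mean RPKM of 6 nuclear genes of the same complex, for each sample, with each panel on its own axis that starts at 0. Meishan replicates 2 and 3 stand above the Large White samples in all 3 panels, and Meishan replicate 1 sits close to them.

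Genes that serve these complexes were followed through lists as well. Of 27 assembly factors 11 had an identifier and 10 were tested, with 0 called, 7 values below 0 and a median log2 fold change of -0.28. Over all tested features 0.758% were called in either direction and 53.0% lay below 0, so 0 called in a list of this size says little. The lowest p-values among them belonged to COX17, a copper chaperone of complex IV (log2 fold change -0.55, limma adjusted p = 0.366), and TMEM70, which acts in ATP synthase assembly (-0.38, limma adjusted p = 0.414). Of 25 genes for the synthesis, cutting and turnover of mitochondrial RNA, 19 had an identifier and 18 were tested, with 0 called, 14 values below 0 and a median of -0.19. The same shares over all features, 0.758% called and 53.0% below 0, stand beside these counts. Genes of a list were measured in the same 6 samples, so the counts are not independent results. TEFM, the mitochondrial transcription elongation factor, had an RPKM of 1.86, 1.85 and 1.83 in Meishan, against 3.97, 4.03 and 2.36 in Large White (log2 fold change -0.62, limma adjusted p = 0.221). TRMT10C, part of the enzyme that cuts tRNA ends out of the polycistronic RNA, had a log2 fold change of -0.53 (limma adjusted p = 0.322).

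Across the 6 samples the 6 genes moved together, with Pearson r of log2(RPKM + 1) between 0.895 and 0.990 over the 15 pairs. This is a description of 6 points that share a library and its scaling. COX2 lay closest to the mean of the 6 genes, each of which is part of that mean (r = 0.999) and CYTB farthest (r = 0.954). The 5 protein-coding genes outside the mitochondrial genome with the highest r to that mean, out of 13375 compared over 6 samples, were ENSSSCG00000028351 (r = 0.987), IRAK1 (0.985), RCAN1 (0.982), ENSSSCG00000016669 (0.979) and ENSSSCG00000023198 (0.978), and no symbol was found for those given by identifier. IRAK1, a kinase of innate immune signalling, varied only between 5.30 and 6.38 RPKM, and RCAN1, a calcineurin regulator, between 2.65 and 7.11. Without Meishan replicate 2 the r of these 5 lay between 0.912 and 0.971. They were picked for a high r over the same samples, so this is no separate support. With 13375 genes and 6 points, some high r values can arise without any link. The members were not picked in this way, so their values cannot be ranked against these 5. Among the members, r fell to 0.777 for COX1 and to 0.896 for CYTB. The 7 mitochondrial complex I genes had r between 0.707 for ND3 and 0.981 for ND5 (0.323 and 0.915 without Meishan replicate 2, with ND1 at 0.437). Their log2 fold changes lay between 0.01 and 0.89 with 0 of 7 called, against 0.758% of tested features. Among them ND4L alone had all Meishan samples above all Large White samples (limma unadjusted p = 0.0331, adjusted p = 0.267). Such a separation held for 9.94% of tested features.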

How the data were processed

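Strand-specific paired-end libraries were made from rRNA-depleted total RNA. By the processing notes and the methods of the study, reads were mapped with TopHat (TopHat2 2.1.0 in the notes, another version in the methods) to the S. scrofa genome with Ensembl annotation, and read pairs were counted with htseq-count by strand, at a mapping quality of at least 1. The authors deposited RPKM values, one per feature and sample; no read numbers were used from the files. Read numbers and lengths were recovered here as whole multiples of the value of 1 read (tolerance 0.001), with lncRNA lengths from the study's supplement. For all 6 genes the recovered length equals that in RefSeq. Intervals cover counting error only.

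Breeds were compared with limma 3.58.1 in R 4.3.3 (lmFit, eBayes with trend) on log2(RPKM + 1), after removing features that did not reach 0.5 RPKM in 3 or more samples. Because of the added 1, changes of low features are understated. The thresholds follow the study's methods, and its own tool was not used. The procedure was tested on simulated data, where 100% of 200 features shifted by 2 on the log2 scale were recovered among 15074. The simulated spread was the same for all features and both breeds and was not matched to these samples. This recovery therefore does not measure the power for the 6 genes, whose spread in Meishan was wide. Python 3.11.15 and scipy 1.17.1 were used for exact tests, on log2 values for ratios and on percentages for shares. Symbols came from a table that paired 11654 identifiers. The members and lists were chosen with earlier results of these data known. The text names the 6 genes, called genes or the 2 with the lowest p of each nuclear list, the gene with the highest mean of each complex, and the 5 features closest in pattern. Alternatives were other pseudocounts, filters, scalings, limma-voom on recovered reads, a replicate block and each sample left out. Whether nuclear copies of mitochondrial DNA share reads with these genes was not tested.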

Additional observations from a re-analysis of the deposited data

How the results depend on the processing

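Under all 10 other settings and all 6 fits without 1 sample, 0 of the 6 genes and 0 of the tested genes of the 5 nuclear lists passed the threshold in limma. In the 90 fits of a member under another setting or without 1 sample the direction stayed the same, with adjusted p between 0.121 and 1. The number of all features past the threshold, 113 (2367 at an unadjusted p under 0.05), fell to 74 with limma-voom on recovered reads, 62 with a pseudocount of 0.1, 27 with the replicate block and 6 with no filter, and ran from 2 to 240 with 1 sample left out. It was highest without Meishan replicate 3, 39 without Meishan replicate 1, 20 without Meishan replicate 2, and 3, 3 and 2 without Large White replicate 1, 2 and 3. The cause was not tested. Both breeds are numbered 1 to 3, but deviations from the breed means correlated at -0.04, 0.12 and 0.15 for samples of the same number, so the numbers were not taken as pairs. With the replicate block on the share of the 6 genes, the difference was 2.94 percentage points (exact sign-flip permutation p = 0.25, the smallest that 3 pairs allow), with all 3 pairs in one direction. This difference ran from 1.29 to 4.21 percentage points with 1 sample left out and from 1.56 to 3.42 under the other settings. The number of pairs in one order ran from 13 to 14, and the mean log2 ratio of ATP8 to ATP6 from -3.81 to -3.69. Counting error was small beside the spread between samples except for ATP8 in Large White, where the 95% counting intervals of the 3 samples overlapped.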
